A study of Mus musculus with 4 samples.

Results

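Fibronectin, tenascin-C, tenascin-X, periostin, osteopontin, SPARC, SPARC-like 1 and thrombospondins 1, 2 and 4 are secreted glycoproteins of the extracellular matrix (ECM). Their 10 genes, Fn1, Tnc, Tnxb, Postn, Spp1, Sparc, Sparcl1, Thbs1, Thbs2 and Thbs4, were chosen by gene symbol out of 24063 symbols in the tables, and each was measured on the RefSeq transcript that took most reads in the 4 libraries together. All 10 were among the 16208 genes tested. RNA came from CD31-selected lung endothelial cells (ECs) of C57BL6J mice, 8 weeks old and labelled male, without any transgene or deletion. One group was taken 7 days after left unilateral pneumonectomy (PNX) and the other from sham-operated mice, whose chest was opened with no lung removed. Each group had 2 libraries, and each library pooled the cells of 2 mice.

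Fibronectin is laid down by cells as fibrils on which collagens and other matrix proteins assemble, and integrins on the cell surface bind it. Tenascins, thrombospondins, periostin, osteopontin and SPARC are called matricellular because they act less as structural beams than as signals between matrix and cell, through integrins, CD36, CD47 and CD44. In adult tissue many of them are low and are made again during wound repair and growth, and in vessels thrombospondin 1 and thrombospondin 2 are known as inhibitors of angiogenesis.

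The libraries held between 41367438 and 50952879 counts with 1 transcript per gene, and 3 counts, the smallest level taken as detectable, corresponded to at most 0.0725 CPM (counts scaled to library size), a limit set by counting error alone. Replicates lay close together. The median SD of log2 normalized counts within a group was 0.045, and the mean chi-square per gene between replicates was 1.74 in sham and 1.51 after PNX, slightly above counting noise. The p-values rest on this small spread between 2 libraries in each group. How much of the variation between mice it holds cannot be told from the counts. The endothelial genes Pecam1 and Cdh5 ranked 22 and 14 by normalized count in sham, but the alveolar type 2 gene Sftpc ranked 2 and the macrophage gene Chil3 rose from rank 45 to rank 1 after PNX, so the fraction held RNA of other cells. Of 44 genes of chromosome Y in the tables, 0 had a count in any library, while Xist had between 31872 and 33792 normalized counts, which goes against the label male in all 4 libraries alike.

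Of the 10 genes, 6 were higher in post-PNX libraries past a log2 fold change of 1 and an adjusted p of 0.01 in edgeR's quasi-likelihood test, and 0 were lower. Among all genes tested, 5.9% were called higher and 1.66% lower by the same rule, or 7.56% in either direction. The 6 were Fn1, Tnc, Spp1, Sparc, Thbs2 and Thbs4, of which Thbs4 passed the filter on low counts only through its post-PNX libraries. Postn fell just short of the fold threshold, Thbs1 and Sparcl1 rose by less, and Tnxb did not pass. At an adjusted p under 0.01 whatever the fold, 9 of 10 were higher and 0 lower, against 29.3% higher and 27.8% lower among all genes. The 10 genes were chosen with earlier results of these data known, so their counts beside these shares are a description only. All but Thbs2 and Thbs4 had at least 1409 normalized counts in each library, where small changes pass more easily than at low counts. The median log2 fold change of the 10 genes was 1.41, beside 0.00 over all genes tested. In each of those 9 genes both post-PNX libraries lay above both sham libraries, which held for 40.8% of all genes, and the reverse order held for 40.5%. In these bulk samples, more cells of a type and more RNA per cell cannot be told apart.

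**Figure D1:**
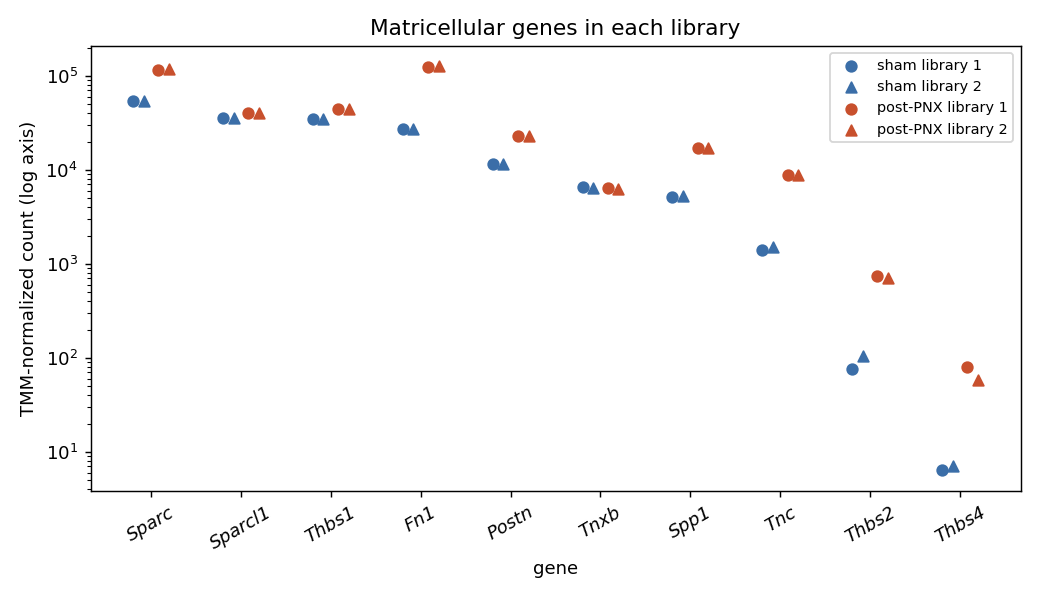
TMM-normalized count on a log axis for each of the 10 genes, ordered by their mean in sham, with sham libraries in blue and post-PNX libraries in red (circles replicate 1, triangles replicate 2). The post-PNX points lie above the sham points in 9 genes, and they overlap in Tnxb, between 6295 and 6496 normalized counts in the 4 libraries.

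Fn1, which encodes fibronectin (chromosome 1 from 71585473 to 71653280, mm10), had 26987 and 27254 normalized counts in sham libraries and 125381 and 126917 in post-PNX libraries. The groups were far apart compared with the distance between replicates, and Fn1 moved from rank 182 to rank 5 among all genes by normalized count. Its log2 fold change was 2.22 (standard error, SE, of 0.017, with an adjusted p of 1.5e-70 by the quasi-likelihood test of edgeR and Benjamini-Hochberg adjustment), or 4.65-fold higher. The antisense gene Apol7d overlaps Fn1 but had at most 8.84 normalized counts in a library.

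Fibronectin exists in splice forms. Cellular fibronectin can include the extra type III repeats EDA and EDB, each made by a single exon, which plasma fibronectin from the liver lacks, and both are known from wounds, growing vessels and the embryo. The 7 Fn1 transcripts in the tables differ in these exons and in the variable (V) region, which carries a binding site for integrin alpha 4 beta 1. The transcript lengths implied by the deposited FPKM differ by 270 bases with or without EDA, by 273 with or without EDB, and by 285 for the longer part of the V region, which are the lengths of these segments in the GENCODE annotation. Transcripts of the gene carried nearly the same counts, at least 97.2% of the highest, so a read was taken to be counted for each transcript it overlaps, and the difference between a pair of transcripts was taken as the reads assigned through the extra segment alone. The exons are printed from the GENCODE transcript that holds both, 5′ to 3′ on the minus strand of mm10, with the alternative exon in capitals and bases of the neighbouring exons in lower case, since these are the sequences whose inclusion is measured next. EDA is exon 33 of 46 at chr1:71603660-71603929 and EDB is exon 25 at chr1:71613763-71614035.
Fn1 EDA exon: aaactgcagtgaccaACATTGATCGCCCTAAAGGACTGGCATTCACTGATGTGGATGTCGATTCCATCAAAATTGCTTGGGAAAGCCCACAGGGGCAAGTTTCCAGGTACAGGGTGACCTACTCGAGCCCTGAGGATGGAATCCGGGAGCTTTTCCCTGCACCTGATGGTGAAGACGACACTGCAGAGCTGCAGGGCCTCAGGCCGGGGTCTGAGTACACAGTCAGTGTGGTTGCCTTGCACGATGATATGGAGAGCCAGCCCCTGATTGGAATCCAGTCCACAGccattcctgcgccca
Fn1 EDB exon: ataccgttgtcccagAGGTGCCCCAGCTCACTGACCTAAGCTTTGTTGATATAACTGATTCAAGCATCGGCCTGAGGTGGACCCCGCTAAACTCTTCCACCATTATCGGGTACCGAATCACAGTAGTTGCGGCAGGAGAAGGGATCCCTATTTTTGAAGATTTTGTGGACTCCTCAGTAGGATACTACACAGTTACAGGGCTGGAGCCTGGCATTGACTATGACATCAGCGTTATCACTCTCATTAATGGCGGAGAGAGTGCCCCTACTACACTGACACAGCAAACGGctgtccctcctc

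The EDA exon alone took 93 and 90 counts in sham and 602 and 494 after PNX. As a share of all Fn1 counts this was 0.312% (exact 95% binomial interval 0.252 to 0.382) and 0.337% (0.271 to 0.414) in sham and 0.472% (0.435 to 0.511) and 0.434% (0.396 to 0.474) after PNX. Both post-PNX shares were above both sham shares, with means in a ratio of 1.40, although the intervals of the second sham and the second post-PNX library overlapped. The EDB exon took only 10 and 5 counts in sham, or 0.0336% (0.0161 to 0.0617) and 0.0187% (0.00607 to 0.0436), and 119 and 115 counts after PNX, or 0.0933% (0.0773 to 0.112) and 0.101% (0.0834 to 0.121). The sham intervals lay below the post-PNX intervals, and the means were in a ratio of 3.72, which rests on few sham counts. The longer part of the V region, measured in the same way, held 2.10% and 1.96% of Fn1 counts in sham and 2.20% and 2.12% after PNX, in a ratio of 1.06. The shorter part of the V region had 8 and 7 counts in sham and 13 and 10 after PNX, too few to compare. An exact two-sided permutation test gave p = 0.333 for EDA, EDB and the longer part of the V region, the smallest that 2 against 2 libraries allow. The intervals cover counting error only. A share of this kind is not the fraction of Fn1 mRNA that includes the exon. Relative to TMM-normalized library size, the counts rose 6.49-fold for EDA alone and 17.3-fold for EDB alone, beside 4.65-fold for the gene.

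**Figure D2:**
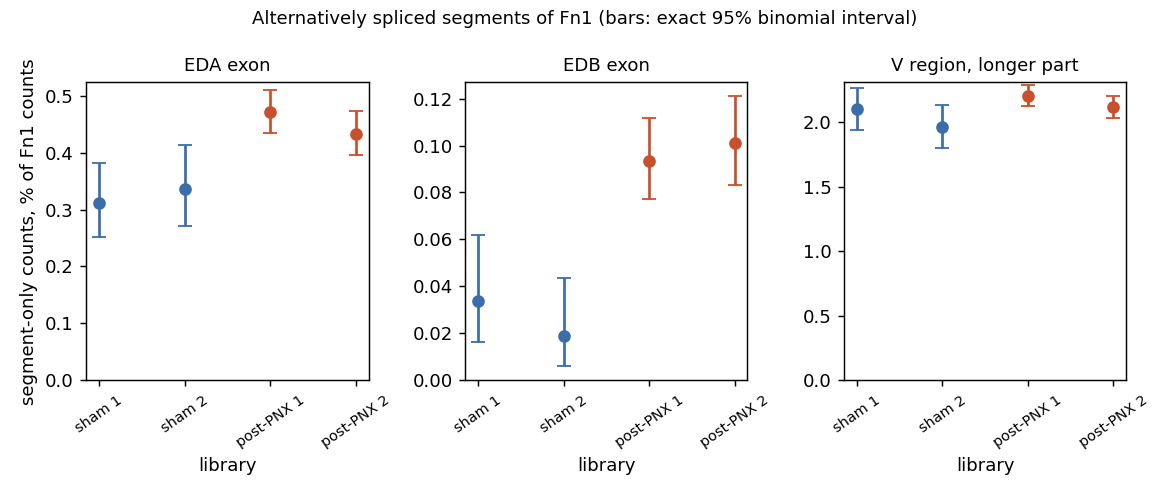
Counts that fall to the EDA exon, the EDB exon or the longer part of the V region alone, in percent of all Fn1 counts, for each library (points, with exact 95% binomial intervals, blue sham and red post-PNX, and a separate axis from 0 in each panel). The EDA share is 0.312% and 0.337% in sham and 0.472% and 0.434% after PNX, and the EDB share 0.0336% and 0.0187% against 0.0933% and 0.101%, while the V region stays between 1.96% and 2.20%.

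Tnc encodes tenascin-C, a hexameric protein of wounds and of the embryo that loosens the hold of cells on fibronectin. It lies on chromosome 4 from 63959785 to 64047015 and had 1409 and 1518 normalized counts in sham and 8766 and 8728 after PNX. The post-PNX libraries were nearly equal and the groups did not overlap. The log2 fold change was 2.58 (SE 0.031, edgeR adjusted p = 1.4e-59), or 5.99-fold. Tnxb encodes tenascin-X, which in adult connective tissue spaces collagen fibrils, and lies on chromosome 17 from 34660453 to 34719815. It had 6496 and 6392 normalized counts in sham and 6420 and 6295 after PNX, so the groups overlapped, and its log2 fold change was -0.02 (SE 0.025, edgeR adjusted p = 0.499). When libraries were scaled to 12 endothelial marker genes, which raised the median of all genes by 0.26 on the log2 scale, Tnxb was 0.24 above sham (edgeR adjusted p = 5.6e-10), close to that shift. Per transcript length, by the deposited TPM, a unit scaled to transcript length and library total, Tnc stood at 0.292 and 0.320 of the level of Tnxb in the sham libraries and at 1.84 and 1.87 after PNX. The order of these tenascins was thus the opposite in the groups, and the ratio of Tnc to Tnxb was 6.06 times as high after PNX (exact two-sided permutation p = 0.333, the smallest that 2 against 2 allow). The other tenascin genes were low. Tnr, a tenascin of the nervous system, had at most 13.3 normalized counts in a library, and Tnn, tenascin-W, between 138 and 159, with a log2 fold change of -0.18 (SE 0.13, edgeR adjusted p = 0.201).

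Postn encodes periostin, which binds collagen and fibronectin and recruits the protease BMP1 to the crosslinking enzyme lysyl oxidase. On chromosome 3 from 54359267 to 54391041, it had 11425 and 11494 normalized counts in sham and 23033 and 22764 after PNX. The log2 fold change was 0.999 (SE 0.020, edgeR adjusted p = 8.0e-48), a doubling that lay on the fold threshold itself, and it was past the threshold in 5 of 12 alternative settings. Its 3 transcripts each held at least 99.9% of the highest count, so forms with and without its small alternative exons could not be told apart by level.

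Spp1 encodes osteopontin, an acidic cytokine of bone, macrophages and injured tissue that binds integrins and CD44. On chromosome 5 from 104435111 to 104441053, it had 5192 and 5284 normalized counts in sham and 17203 and 17227 after PNX. The post-PNX libraries were nearly equal and the groups did not overlap, with a log2 fold change of 1.72 (SE 0.022, edgeR adjusted p = 9.7e-58), or 3.29-fold. The other genes of its acidic bone protein family were close to absent. Ibsp and Dmp1 had at most 6.69 normalized counts in a library and Mepe at most 0.906, and none of these 3 passed the filter on low counts.

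Sparc encodes SPARC, or osteonectin, a collagen-binding protein that ECs themselves make in culture and that is needed for collagen deposition. It lies on chromosome 11 from 55394159 to 55420080 and was the highest of the 10 genes per length in both groups. It had 53851 and 54662 normalized counts in sham and 115650 and 119007 after PNX, a log2 fold change of 1.11 (SE 0.016, edgeR adjusted p = 1.0e-54), or 2.16-fold. Sparcl1, its closest relative, encodes hevin, an anti-adhesive protein of vessels and brain, and lies on chromosome 5 from 104079108 to 104114088. Sparcl1 had 35253 and 35650 normalized counts in sham and 39951 and 40399 after PNX. The groups did not overlap, but the log2 fold change was only 0.18 (SE 0.017, edgeR adjusted p = 3.1e-14), an increase of 13.3%. By TPM, Sparc stood at 1.80 and 1.81 times the level of Sparcl1 in sham and at 3.42 and 3.48 times after PNX (exact two-sided permutation p = 0.333, the smallest that 2 against 2 allow).

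The thrombospondins fall into trimers, Thbs1 and Thbs2, which bind CD36 and CD47 and inhibit angiogenesis, and pentamers such as Thbs4, found in muscle, tendon and injured vessels. Thbs1, on chromosome 2 from 118111876 to 118127133, had 35173 and 34547 normalized counts in sham and 44014 and 44038 after PNX. All post-PNX values were above all sham values, and the log2 fold change was 0.34 (SE 0.017, edgeR adjusted p = 4.3e-26), an increase of 26.3%. Thbs2, on chromosome 17 from 14665500 to 14694262, took 84 and 103 reads in sham and 763 and 631 after PNX. In normalized counts these were 76.1 and 105 against 750 and 703, a log2 fold change of 3.02 (SE 0.10, edgeR adjusted p = 1.2e-35), or 8.10-fold. Thbs4, on chromosome 13 from 92751586 to 92794818, had 7 counts in each sham library and 81 and 52 after PNX. Its log2 fold change of 3.34 was the highest of the 10 genes and also the least precise (SE 0.32, edgeR adjusted p = 5.9e-14), because it rests on few sham counts. Thbs4 was tested only because its post-PNX counts passed the filter on low counts, which its sham counts alone would not have passed.

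By TPM, Thbs1 was 472 and 336 times as high as Thbs2 in the sham libraries and 59.9 and 63.9 times after PNX, so that Thbs1 stayed the main thrombospondin while its lead over Thbs2 fell (exact two-sided permutation p = 0.333, the smallest that 2 against 2 allow). Thbs3, the remaining pentamer gene with a level of note, had between 2071 and 2378 normalized counts in the 4 libraries and a log2 fold change of 0.14 (SE 0.036, edgeR adjusted p = 0.00091). Comp, the cartilage thrombospondin, had between 26.7 and 45.3 normalized counts and did not pass (log2 fold change -0.39, SE 0.26, edgeR adjusted p = 0.187).

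**Figure D3:**
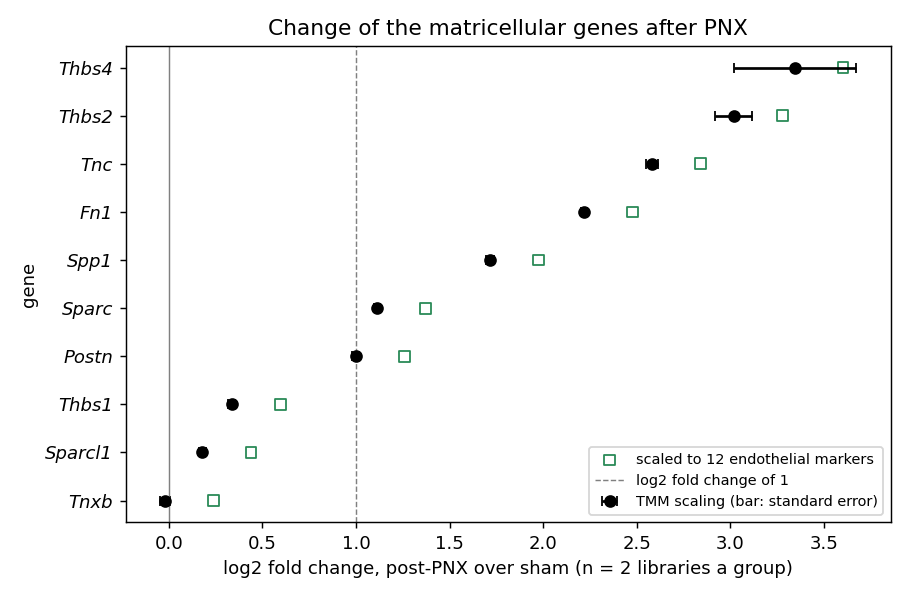
Log2 fold change of post-PNX over sham for the 10 genes with its standard error (black, TMM scaling), and the same scaled to 12 endothelial marker genes (green squares), with dashed line at 1. Values run from -0.02 in Tnxb to 3.34 in Thbs4, Postn lies on the dashed line at 0.999, and the second scaling moves every gene up by about the same amount.

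Levels per transcript length, on the transcript used, put the 10 genes in an order in which no neighbours overlapped in either group. In sham this order was Sparc with 713 ± 6.95 TPM (SD, n = 2), Sparcl1 with 394 ± 2.80, Thbs1 with 208 ± 2.82, Postn with 124 ± 0.426, Spp1 with 120 ± 1.40, Fn1 with 112 ± 0.686, Tnxb with 23.3 ± 0.288, Tnc with 7.15 ± 0.371, Thbs2 with 0.530 ± 0.119 and Thbs4 with 0.0730 ± 0.0060. After PNX it was Sparc with 1506 ± 29.99 TPM (SD, n = 2), Fn1 with 507 ± 4.20, Sparcl1 with 437 ± 3.30, Spp1 with 384 ± 0.250, Thbs1 with 257 ± 0.015, Postn with 242 ± 2.08, Tnc with 41.7 ± 0.143, Tnxb with 22.5 ± 0.318, Thbs2 with 4.15 ± 0.190 and Thbs4 with 0.727 ± 0.162. On these transcripts Fn1 thus passed from place 6 to place 2, and Tnc passed Tnxb. In sham the places of Postn, Spp1 and Fn1 depended on the transcript used. Their other transcripts had up to 127 TPM in sham for Postn and for Spp1, and up to 122 for Fn1. The genes with the largest folds, Thbs4 and Thbs2, stayed the lowest. The single transcripts used for the 10 genes together held 0.170% and 0.171% of all TPM in sham libraries and 0.338% and 0.343% in post-PNX libraries. The TPM total runs over all transcripts, and a gene with several transcripts enters it with each. Neither these shares nor their rise are therefore those of the genes together.

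**Figure D4:**
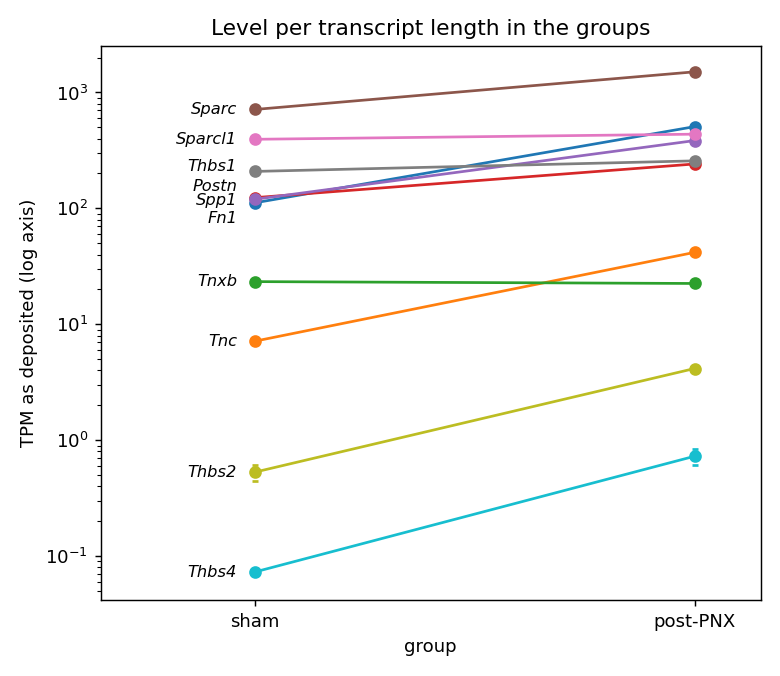
Mean deposited TPM of the 10 genes, on the transcript used for each, in the sham and post-PNX groups on a log axis. Short dashes show the single libraries, and a line joins the group means of each gene. Sparc is highest in both groups at 713 and 1506 TPM, and the line of Fn1 crosses those of Spp1, Postn, Thbs1 and Sparcl1 on its way from 112 to 507 TPM.

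Promoter sequence was at hand for 7 of the 10 genes in the RefSeq table of GRCm38.p6, the assembly named mm10. Fn1, Thbs1 and Sparcl1 have no entry there. The 250 bases before each start site were searched on both strands for GGAATG, the core letters bound by TEAD factors, which are the partners of YAP1 on DNA, for TGANTCA, the AP-1 motif, and for TATAAA. Over all 32851 promoters in the table these were found in 12.6%, 6.75% and 12.4%. Among the windows of the 7 genes only that of Thbs4 held GGAATG, read as CATTCC in a pair of overlapping copies that begin 197 and 192 bases before the start site. TGANTCA was found only for Tnxb, 55 bases before a start site at chr17:34670535, which lies inside the span given above for the gene. TATAAA began 26 bases before a start site of Postn, 211 before a start site of Spp1 and 126 before that of Thbs2. For Tnc, whose windows overlap, it began 126 and 205 bases before the start sites. Postn and Spp1 each had another window without TATAAA, so the number of genes with it does not compare directly with the share of promoters. The windows of the thrombospondins with the largest folds are printed to show these letters, 5′ to 3′ on the minus strand, with the matches in capitals. They lie at chr13:92794819-92795068 for Thbs4 and at chr17:14694263-14694512 for Thbs2, where the capitals are TATAAA on the other strand.
Thbs4 promoter: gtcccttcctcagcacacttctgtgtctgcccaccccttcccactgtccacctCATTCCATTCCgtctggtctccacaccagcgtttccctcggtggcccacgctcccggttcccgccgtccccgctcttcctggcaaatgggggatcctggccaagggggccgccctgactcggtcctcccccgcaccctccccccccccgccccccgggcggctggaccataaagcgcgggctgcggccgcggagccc
Thbs2 promoter: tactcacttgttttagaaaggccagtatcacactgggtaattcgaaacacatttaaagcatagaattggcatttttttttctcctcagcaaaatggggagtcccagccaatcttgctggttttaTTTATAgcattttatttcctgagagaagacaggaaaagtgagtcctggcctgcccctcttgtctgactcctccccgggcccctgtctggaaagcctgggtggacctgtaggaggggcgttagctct
A match gives the letters only and no measure of binding.

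Of 26 listed genes of the tenascin, thrombospondin, SPARC, CCN, osteopontin and matrilin families and other matrix glycoproteins, 21 were tested, and 4 of these were called higher and 0 lower. By the same rule 5.9% of all genes tested were called higher and 1.66% lower. At an adjusted p under 0.01, 10 were higher and 2 lower, against 29.3% and 27.8% of all genes, and the median log2 fold change was 0.20. Wisp1, the CCN family member CCN4 of fibroblasts and bone, had 179 and 176 normalized counts in sham and 1050 and 1174 after PNX (log2 fold change 2.64, SE 0.076, edgeR adjusted p = 7.7e-39). Ccdc80, a matrix protein of fat and muscle, rose from 1536 ± 70.4 to 6835 ± 28.3 (SD, n = 2), Fstl1, a follistatin-like relative of SPARC, from 7049 ± 57.7 to 18607 ± 193, and Tgfbi, a relative of periostin with the same fasciclin domains, from 5289 ± 10.9 to 12172 ± 114, with log2 fold changes of 2.16, 1.40 and 1.20. The relatives with the most counts had smaller changes. Igfbp7, an angiomodulin of vessels, rose by 0.29 on the log2 scale, and Cyr61, which encodes CCN1 and is a known target gene of YAP1, fell by 0.19 on that scale (edgeR adjusted p = 9.8e-15), from 28493 and 28545 normalized counts to 24853 and 25001. That fall is smaller than the shift of 0.26 under endothelial scaling.

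Of 24 genes for receptors of these proteins 1 was called higher and 0 lower, while 14 were higher and 8 lower at an adjusted p under 0.01, against 57.1% of all genes passing in either direction. The 4.17% of the list called higher was near the 5.9% of all genes tested. The gene called was Itgb8, whose product pairs with the alpha V chain and binds latent TGF-beta, with 25.4 and 18.3 normalized counts in sham and 74.7 and 88.0 after PNX (log2 fold change 1.87, SE 0.24, edgeR adjusted p = 3.4e-10). Itgb1, the beta 1 chain of most fibronectin receptors, was the most abundant integrin listed and rose by 0.33 on the log2 scale, from 53482 ± 281 to 67400 ± 733 normalized counts (SD, n = 2). Anxa2, annexin A2, a cell surface partner of tenascin-C, rose by 0.60. Cd36, the receptor through which thrombospondins 1 and 2 act on microvascular ECs, had the most counts of the list and went the other way, from 140128 and 134916 normalized counts to 91209 and 91333, a log2 fold change of -0.59 (SE 0.016, edgeR adjusted p = 2.0e-40). Ptprz1, a receptor phosphatase that binds tenascins, fell by 0.71 from 161 ± 8.03 to 99.5 ± 18.4 (SD, n = 2).

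Of 18 listed enzymes and inhibitors that assemble, modify or cut these proteins, 17 were tested, and 7 of these were called higher and 0 lower, with a median log2 fold change of 0.75. Those called higher were 41.2% of the list, beside 5.9% of all genes tested. Timp1, an inhibitor of metalloproteinases, had 230 and 188 normalized counts in sham and 2132 and 2057 after PNX, a log2 fold change of 3.32 (SE 0.063, edgeR adjusted p = 1.0e-48). Fam20c, the Golgi kinase that phosphorylates osteopontin, rose from 320 and 340 normalized counts to 1248 and 1245, a log2 fold change of 1.92. Ctsk, the collagen-cutting cathepsin K, and Mmp2, a gelatinase that cuts fibronectin, rose with log2 fold changes of 2.02 and 1.71. The most abundant of the list, Tgm2, a transglutaminase that crosslinks fibronectin, fell by 0.12 on the log2 scale, from 39882 ± 67.7 to 36788 ± 86.5 normalized counts (SD, n = 2), and Adamts1, a protease that releases fragments of thrombospondins, rose by 0.07. The fall of Tgm2, too, is smaller than that shift.

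Markers of other cell types moved in the same libraries. The shares to set beside each marker list were 5.9% of all genes tested called higher and 1.66% called lower. At an adjusted p under 0.01 whatever the fold, they were 29.3% higher and 27.8% lower. Of 10 fibroblast markers, 5 were called higher, with 7 higher and 2 lower at an adjusted p under 0.01 in edgeR's test, and their summed level was 66337 and 66933 normalized counts in sham and 192300 and 195057 after PNX. Col1a1 and Col1a2 rose with log2 fold changes of 2.34 and 2.08, but Pdgfra, the receptor that marks resident fibroblasts, was 0.23 lower on the log2 scale, a fall smaller than the shift of 0.26 under endothelial scaling, and Tcf21, a lipofibroblast factor, had 0.02 (edgeR adjusted p = 0.677). Of 7 mesothelial markers found 4 were called higher and 7 passed that p, all upwards, with sums of 11915 and 12070 against 24647 and 24996, and Msln and Upk3b had log2 fold changes of 1.97 and 1.08. Of 10 macrophage markers 5 were called higher, and 9 were higher and 1 lower at that p, with sums of 28285 and 27911 against 57634 and 57746, and Cd68 and Csf1r rose by 0.83 and 0.68. Of 8 alveolar macrophage markers 2 were called higher and 1 lower, but 5 were lower and 3 higher at that p, with a median log2 fold change of -0.18. Their sums of 85836 and 85117 against 216231 and 211559 rose through Chil3, from a mean of 66367 to 187941 normalized counts, and Marco, with a log2 fold change of 2.99, while Ear1, Fabp1, Siglecf, Ear2 and Krt79 had log2 fold changes of -1.09, -0.95, -0.56, -0.22 and -0.13. The falls of Ear2 and Krt79 are smaller than the shift of 0.26 under endothelial scaling. Spp1 and Fn1 are known products of macrophages as well as of fibroblasts, and Sparc, Postn, Tnc and Thbs2 of fibroblasts and other stromal cells. ECs make SPARC too, and which cells the counts of these genes came from was not tested.

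Mural cell markers, with 2 of 10 called higher and 9 higher at that p, had sums of 25572 and 25815 against 34536 and 34397, and Acta2 and Myh11 had log2 fold changes of 0.54 and 0.08. Platelet and megakaryocyte markers were listed because platelets store thrombospondin 1 as protein, while their part in Thbs1 RNA was not tested. Of these markers 1 of 10 was called higher and 5 were higher at that p. Their sums were 3255 and 3408 against 4723 and 4712, with Pf4 at 1.34 and Ppbp at 0.26. Of 7 general leukocyte markers found 0 were called, and 2 were higher and 3 lower at that p, with sums of 24148 and 24299 against 23339 and 23398, and Ptprc and Cd3e had log2 fold changes of 0.00 and -0.66. Of 9 epithelial markers 1 was called lower, and 8 were lower and 1 higher at that p, with sums of 429403 and 431852 against 262644 and 259756, and Epcam and Cdh1 had log2 fold changes of -0.48 and -0.25. The fall of Cdh1 is smaller than the shift of 0.26 under endothelial scaling. Of 12 endothelial markers 0 were called, but 10 were lower and 1 higher at that p, with a median log2 fold change of -0.25 and sums of 570218 and 576270 against 477794 and 479756. Pecam1 and Cdh5 had log2 fold changes of -0.01 and -0.22, and the lowest were Eng, Tek, Egfl7 and Kdr with -0.54, -0.50, -0.43 and -0.40. No marker of any list was at 0 in all libraries. The part of these cell types in the rise of the matricellular genes was not tested, since the libraries are bulk fractions.

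**Figure D5:**
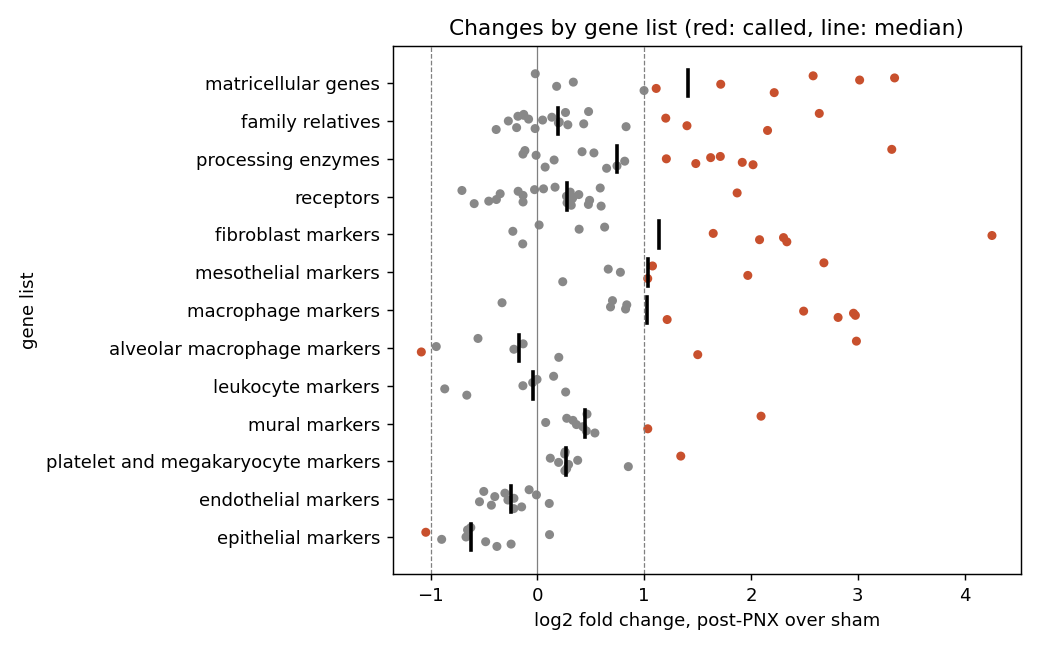
Log2 fold change of post-PNX over sham for each tested gene (point) of each gene list, with called genes in red, the list median as a black line and dashed lines at a log2 fold change of 1 and -1. The matricellular genes have a median of 1.41, the fibroblast markers of 1.14, the receptors of 0.28 and the endothelial markers of -0.25.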

How the data were processed

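Lung ECs were selected with anti-CD31 magnetic beads and their mRNA was sequenced as paired ends from a stranded kit, as the study's methods state. The submitters' processing notes name STAR and mm10. The counter and whether it used strand are not given in the sources used here. The authors deposited raw counts per RefSeq transcript (33068 transcripts), with FPKM and TPM values beside them, which the authors scaled to transcript length and library total. Transcripts of a gene carried nearly equal counts, taken to mean that a read was counted for each transcript it overlaps, so the transcript with the most counts stood for each gene. The authors' exosome protein measurements were not used here.

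Differences were tested with edgeR 4.0.16 under R 4.3.3 (filterByExpr, TMM factors between 0.9985 and 1.0026, quasi-likelihood test without covariates, Benjamini-Hochberg adjustment over 16208 genes). A gene was called past a log2 fold change of 1 in size and an adjusted p under 0.01, the study's thresholds. The standard error is the log2 fold change divided by the square root of F. Normalized counts are scaled to the mean library size. FPKM served for transcript lengths and TPM for levels between genes. The genes and lists were chosen with earlier results of these data known. Besides the 10 genes, the text names by rule the 4 largest changes and 2 highest levels of each related list and the first 2 markers of each marker list. Tnr, Tnn, Thbs3, Comp, Ibsp, Dmp1, Mepe, Pdgfra, Tcf21, Sftpc, Chil3, Ear1, Fabp1, Siglecf, Krt79, Eng, Tek, Egfl7, Kdr and Xist were added after their values were seen. Older symbols were matched through RefSeq synonyms. On simulated data of 16076 genes the test recovered 65 of 67 genes changed by a log2 fold of 1.5 and made 0 calls among 15876 unchanged genes. The simulated spread was the one estimated from these libraries. The simulation therefore cannot show how the test does if mice vary more than these libraries do. The alternatives included DESeq2 1.42.0.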

Additional observations from a re-analysis of the deposited data

How the results depend on the processing

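The count of 6 higher (7 under some settings, with Postn) and 0 lower among the 10 genes, and the counts in the related lists, stayed within 1.5 times under all alternatives run. Over all genes, the count lower went from 269 to 84 when libraries were scaled to 12 endothelial markers, to 160 with a mean of at least 50 counts, and to 39 with glmTreat, which gave 604 higher in place of 957. Endothelial scaling raised the median of all genes by 0.26 and turned Tnxb from -0.02 to 0.24, and Postn lay on either side of the fold threshold, between 0.99 and 1.26. Leaving out each library moved Thbs2 down to 2.79 and Thbs4 to 3.09 at the lowest, still past the thresholds, where a lone library in a group was assumed to vary like the others. With a mean of at least 50 counts Thbs4 was not tested. The deviations of same-numbered libraries correlated with r = 0.03 over genes, so the numbers do not pair the libraries. With the replicate number as a block, 957 genes were called higher and 272 lower, the 10 genes gave 6 and 0, and no call among them changed. For ratios and exon shares, leaving out each library (chosen after seeing the data) only gives back the value of the other library, and a ratio of genes within a library is the same in FPKM and TPM by construction, so neither bears on their stability. Depth limits the EDB share and Thbs4, which rest on 10 or fewer sham counts in a library.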
